A study of Forsythia koreana with 2 samples.

Results

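The transcripts described here are those that stood among the 500 most abundant of flower and also among the 500 most abundant of leaf in Forsythia viridissima var. koreana, with levels that differed by no more than about 2-fold. They are called even here in that sense only. Abundance was ranked by TPM (a level corrected for transcript length and scaled to a common library total). Members were thus chosen by their TPM ranks in both tissues and by their FPKM ratio. A member had a flower minus leaf difference in log2(FPKM + 1) between -1 and 1, where FPKM is fragments per effective length, scaled to the library total. These limits selected 116 of the 69458 transcripts in the files. The measured levels of both tissues chose the members, so their levels and ratios are descriptions and no test was made on them.

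The study sequenced poly(A) RNA of flower and leaf tissue from plants of this yellow-flowered shrub that the labels give as 2 years old, grown outdoors at a research garden for medicinal plants in Japan, with no treatment in either group. Each tissue was represented by a single library (n = 1), and how many plants each pooled is not stated. The flower library held 5466947 expected counts (estimated fragments) and the leaf library 4982637. With 1 library per tissue there was no replicate error, so no p-value is given and each difference below is between these 2 libraries. Intervals of ratios and of count shares are 95% Clopper-Pearson intervals and cover counting error only.

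In plants, a large part of the messenger RNA of any organ comes from a small number of very abundant transcripts. Transcripts that several organs carry at high levels commonly encode parts of the protein synthesis, protein turnover and cytoskeleton machinery, whereas leaf RNA is typically rich in transcripts for photosynthesis. The files do not pair their transcript identifiers with gene names or sequences, so no member could be given a function or a place in the genome, and floral or leaf marker genes could not be looked up to check the tissue labels. The identifiers follow the naming of the Trinity assembler. Here their TR number is called the read cluster, the c number the component, the g number the locus and the i number the isoform. The ending after the second bar was not used. In bulk tissue, a level also cannot tell more cells of a type from more RNA per cell.

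The flower and leaf lists shared 218 of their 500 transcripts, and the 116 members were 53.2% of these. Of the other shared transcripts, 84 were higher in leaf by more than 1 on the log2(FPKM + 1) scale and 18 were higher in flower. Across the 69044 transcripts with an FPKM of 1 or more in either tissue, 49.8% lay between -1 and 1, and of the 16151 that summed to at least 100 counts in the libraries together 62.8% did. The even part of the shared list was thus smaller than the even part of well-covered transcripts at large. Since the rule used this difference, nothing is read from that about the members.

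Evenness was scarcer near the top of the lists. In the top 50 of each tissue 11 transcripts were shared and 4 of these (36.4%) met the limit of 1. In the top 100 it was 10 of 24 (41.7%), in the top 250 it was 46 of 93 (49.5%), in the top 1000 it was 304 of 478 (63.6%) and in the top 5000 it was 2278 of 3121 (73.0%). At each of these lengths the uneven shared transcripts were more often higher in leaf than in flower, with 6 against 1 in the top 50 and 560 against 283 in the top 5000. These lists are nested, so the steps are not independent of each other.

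**Figure D1:**
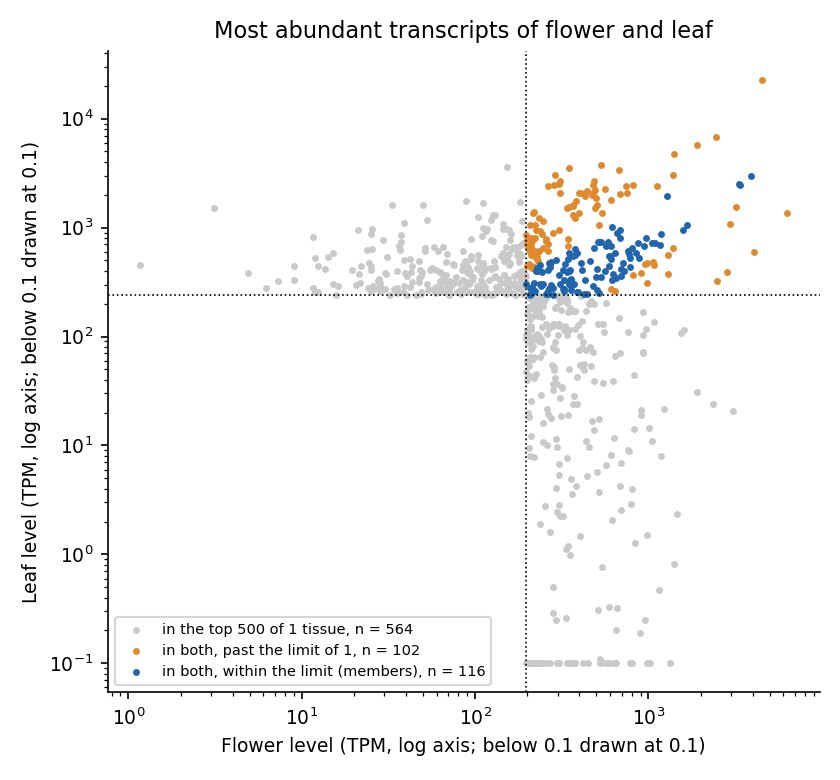
Level of each transcript in flower (x) and leaf (y), in TPM on log axes, for the transcripts in the top 500 of at least 1 tissue; dotted lines mark the level of the 500th transcript (195.85 TPM in flower, 239.66 TPM in leaf). The 116 members form a band around equal levels, as wide as the limit of 1 allows, in the upper right corner, with 84 shared transcripts above the band (higher in leaf) and 18 below it.

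The members held a similar part of each library, and the order of the tissues turned with the unit. By TPM they made up 6.63% of flower and 6.12% of leaf. By expected counts they made up 5.39% of flower (interval 5.37 to 5.40, 294445 counts) and 5.84% of leaf (5.82 to 5.86, 291125 counts). A single member of 6369 bases decided the order by counts, with 16.5% of the members' counts in flower and 23.7% in leaf. Without it the other 115 members held 4.50% of the flower counts (4.48 to 4.51) and 4.46% of the leaf counts (4.44 to 4.47), and 6.50% and 5.93% of the TPM.

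The members were a larger part of the flower list than of the leaf list. They took 25.3% of the TPM of the flower top 500 and 17.1% of that of the leaf top 500. The 84 shared transcripts higher in leaf, which the rule left out, took 15.4% of all leaf TPM and 3.93% of flower TPM. The 18 shared transcripts higher in flower took 3.38% of flower TPM and 1.04% of leaf TPM. Within the members, the 10 most abundant held 29.6% of the members' TPM in flower and 25.5% in leaf.

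Member levels spanned about the same range in both tissues. In flower the lowest member stood at 197.56 TPM, the median at 391 TPM and the highest at 3903 TPM. In leaf the lowest stood at 242.62 TPM, the median at 406 TPM and the highest at 2946 TPM. The lower end of each range was set by the rule, since the 500th transcript stood at 195.85 TPM in flower and 239.66 TPM in leaf. Across the 116 members, the log2 TPM of flower and that of leaf correlated with a Pearson r of 0.80 and a Spearman rho of 0.68, which the rule partly fixes. Across the 218 shared transcripts these were 0.35 and 0.25. The points are transcripts of the same 2 libraries and are no replicates of each other.

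Members stood higher in the flower ranking than in the leaf ranking. The median member was 204th in flower and 264th in leaf, and 82 of the 116 members had the better rank in flower. Of these 82, 25 had the lower FPKM in flower. Among the first 100 transcripts of flower 28 were members, against 11 of the first 100 in leaf. In the ranks from 401 to 500 the order was the other way, with 10 members in flower and 23 in leaf.

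**Figure D2:**
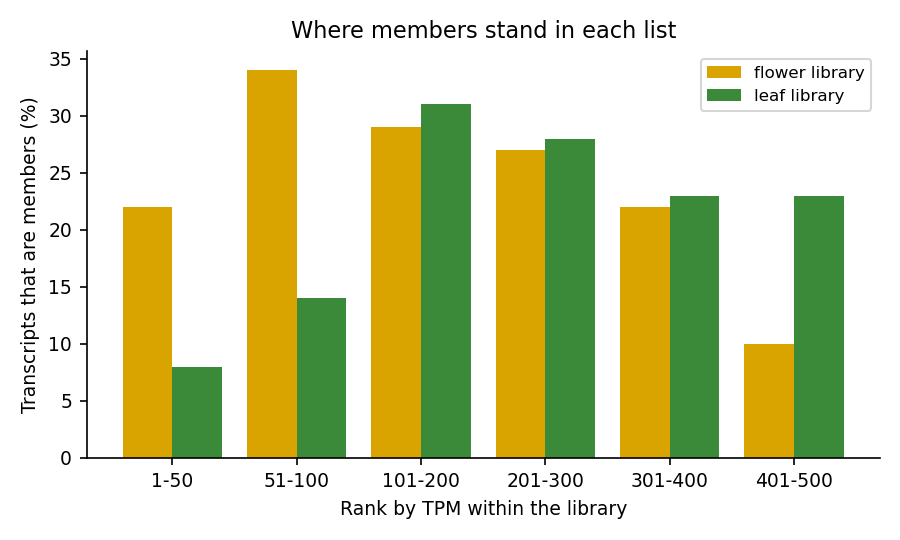
Percent of the transcripts in each band of ranks (x, by TPM within a library) that were members (y), for the flower and the leaf library. The flower bar is the taller in the first 50 ranks (22% against 8%) and the leaf bar from rank 401 to 500 (23% against 10%).

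The 2 most abundant members on the flower side, by the mean log2 TPM of both tissues, were a short and a medium transcript. Transcript TR17159|c0_g1_i1|c0_g1_i1, 237 bases long, held 1773 counts in flower and 1317 in leaf. This was 3903 TPM in flower, the 4th highest level, and 2946 TPM in leaf, the 11th. Scaled by library totals, its flower count was 1.23 times its leaf count (interval 1.14 to 1.32), and its log2(FPKM + 1) was 0.36 higher. RSEM gave this short transcript an effective length of 74.23 bases in flower and 77.72 in leaf, so its TPM rests on a small divisor. It was the only transcript of its read cluster in the files.

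Transcript TR16962|c2_g1_i2|c0_g1_i1, 590 bases long, held 8598 counts in flower and 6191 in leaf, or 3315 TPM (rank 6) and 2514 TPM (rank 15). The scaled flower count was 1.27 times the leaf count (1.22 to 1.31). Another member of the same 590 bases, in a different read cluster, held 8776 counts in flower and 6061 in leaf, or 3384 TPM (rank 5) and 2461 TPM (rank 18). Their levels differed by 1.02-fold in flower and by 1.02-fold in leaf. Of 5 pairs of members with the same length, none of the other 4 was as close in both tissues. Without the sequences it was not tested whether these 2 are near-identical, and if they are, each level is uncertain.

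On the leaf side the most abundant member was also the longest. Transcript TR21127|c0_g1_i1|c0_g1_i1, 6369 bases long and alone in its read cluster in the files, held 48572 counts in flower and 69069 in leaf. This was 0.888% of the flower counts (0.881 to 0.896) and 1.39% of the leaf counts (1.38 to 1.40). Per length it was less prominent, at 1280 TPM in flower (rank 28) and 1934 TPM in leaf (rank 34). The scaled leaf count was 1.56 times the flower count (1.54 to 1.58), the narrowest relative interval among these 4 transcripts.

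The second on the leaf side was transcript TR19057|c4_g1_i1|c0_g1_i1 of 365 bases. It held 830 counts in flower and 1117 in leaf, or 682 TPM (rank 92) and 956 TPM (rank 81). Here the scaled leaf count was 1.48 times the flower count (1.35 to 1.62). No other transcript in the files shared its component, in a read cluster of 4.

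The differences of the members were spread over the whole allowed width, somewhat more thinly near the limits. Of the 116, 57 had the higher FPKM in flower and 59 in leaf, with a median difference of -0.02 in log2(FPKM + 1) and quartiles of -0.48 and 0.40. In steps of 0.25, the 4 intervals below 0 held 12, 15, 20 and 12 members from -1 upwards, and those above 0 held 18, 16, 15 and 8. The difference was at most 0.25 in either direction for 30 members, at most 0.5 for 66 and over 0.75 for 20. The median size of the difference, whatever its direction, was 0.43. The signed median, -0.02 for the members, was 0.41 over all 69044 detected transcripts. Over the 16151 with 100 or more counts it was 0.23. These 2 sets were not cut to the limit of 1 as the members were, so their medians are given for scale and nothing is read from the contrast.

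The direction of the members depended on the scaling and the unit. With library totals they were split nearly evenly, 57 higher in flower and 59 in leaf, and from TPM the median difference was 0.03. TMM scaling, which takes most transcripts as unchanged, shifts all flower values by -0.25 in log2 units before the pseudocount is added. The members were then 39 higher in flower and 77 higher in leaf, or 33.6% in flower against 49.1% with library totals. Of the 116 members, 104 still met the limit of 1.

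Most members differed between the libraries by more than counting error. The 95% interval of the flower to leaf count ratio held 1 for 18 members, lay above 1 for 46 and below 1 for 52. The corresponding share with an interval holding 1 was 25.2% over all transcripts with 100 or more counts, whose median was 265 counts. The 18 members held from 277 to 8387 counts over both libraries, with a median of 2340, and the other members a median of 3445. The whole interval lay within 2-fold for 108 members and within 1.5-fold for 60. Of all transcripts with 100 or more counts 41.1% had an interval within 2-fold. The share of these within 1.5-fold was not computed, so the 60 stand without a background. The rule asked for such a ratio and for high abundance, so nothing is read from that background. Ratios ran from 0.503 to 1.98, limits that the rule sets.

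The 3 members with the smallest difference in log2(FPKM + 1), picked after their values were seen, had 2925, 924 and 478 bases. The first held 4402 counts in flower and 3985 in leaf, a ratio of 1.01 (0.964 to 1.05), and stood at 261 and 251 TPM. The second held 1429 and 1323 counts, a ratio of 0.984 (0.913 to 1.06). The third held 790 and 740, a ratio of 0.973 (0.879 to 1.08). Their levels put all 3 outside the first 100 ranks of either tissue.

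**Figure D3:**
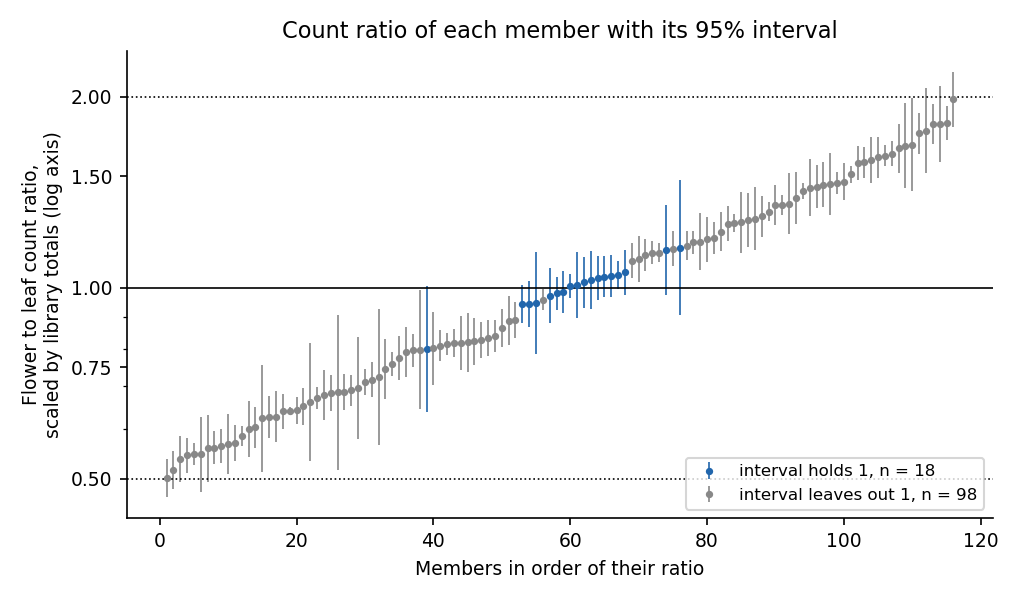
Flower to leaf count ratio of each of the 116 members, scaled by library totals, on a log axis (y), in order of the ratio (x); bars are 95% Clopper-Pearson intervals and dotted lines mark 2-fold. The ratios run from 0.503 to 1.98, and the interval holds 1 for 18 members.

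Counting precision was good for nearly all members. The deepest, the transcript of 6369 bases, held 117641 counts over both libraries, and the shallowest, of 234 bases, held 212, with 91 in flower and 121 in leaf. The shallowest had a flower to leaf ratio of 0.685 (interval 0.516 to 0.907). For the median member the upper end of the interval was 1.16 times the lower end. Because effective length differed slightly between the libraries, the FPKM ratio exceeded the count ratio by a median of 0.708% and by at most 4.98%.

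At the limit of 1 the members met their neighbours without a gap. On the flower side the last member inside, of 569 bases, had a difference of 0.9997, with 1270 counts in flower and 584 in leaf, and the first outside, of 607 bases, had 1.0004, with 2570 and 1181 counts. On the leaf side the last inside was at -0.98 and the first outside at -1.01. At the ends of the lists, the lowest member by leaf rank was 493rd and the lowest by flower rank 496th. An even transcript that stood 503rd in flower, at 195.51 TPM, and another that stood 501st in leaf, at 239.63 TPM, were just outside. Of the transcripts in the flower list alone, 54 of 282 (19.1%) met the limit of 1, and of those in the leaf list alone, 34 of 282 (12.1%).

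Members were somewhat shorter than the top lists as a whole. Their lengths ran from 230 to 6369 bases with a median of 769.5 and quartiles of 464 and 1101. The median was 914.5 bases for the flower top 500, 814.5 for the leaf top 500 and 1024.5 for the 282 transcripts in the flower list alone. For the shared transcripts higher in leaf it was 931.5, and for those higher in flower 754.5. Of the members 31.9% reached 1000 bases, against 51.4% of the transcripts in the flower list alone and 38.7% of those in the leaf list alone. All 69458 transcripts together had a median of 470 bases. The 16151 with 100 or more counts, a limit that every member met, had a median of 1503 bases, and 77.0% reached 1000 bases. The members were thus longer than the first set and shorter than the second. Counts also rise with length at a given level, so nothing more is read from either contrast.

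**Figure D4:**
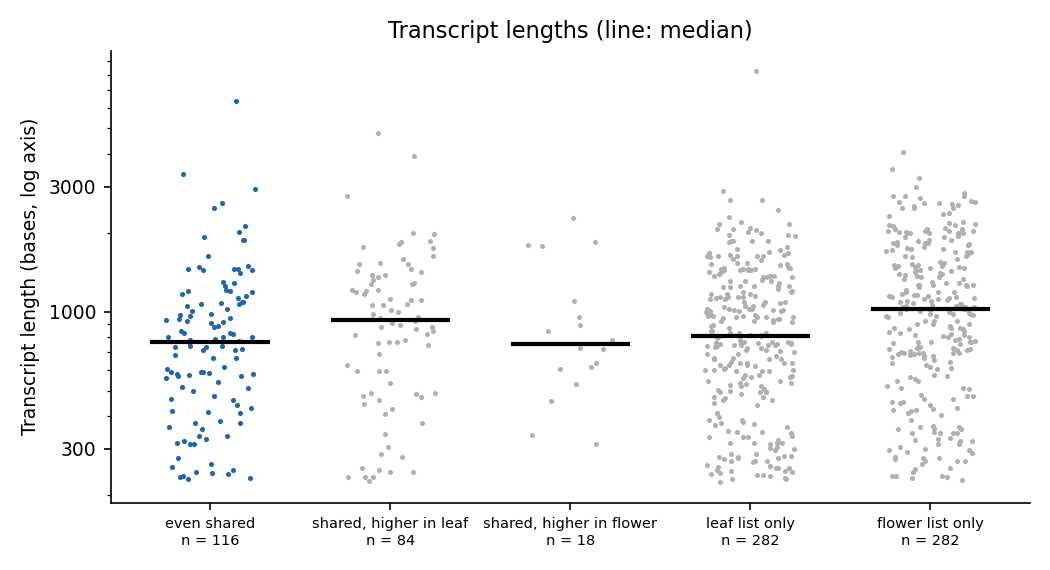
Length in bases on a log axis (y) of the members and of the other transcripts of the top 500 lists by set (x); each point is a transcript and the line is the median. The members' median of 769.5 bases is lower than that of the flower list alone (1024.5) and near that of the leaf list alone (807).

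Among members, direction varied between length classes without a steady trend, and some classes were small. Flower had the higher level for 4 of the 11 members under 300 bases, for 12 of the 20 from 300 to just under 500 bases and for 25 of the 48 from 500 to just under 1000 bases. It had the higher level for 13 of the 30 members from 1000 to just under 2000 bases. Of the 7 members of 2000 bases or more, 3 were on the flower side. From the shortest class to the longest, the median differences were -0.26, 0.26, 0.04, -0.16 and -0.06. The rank correlation of length with the flower minus leaf difference was -0.18 over the 116 members.

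By counts, the short members took a far smaller part of the members' total than by TPM, and the long ones a larger part. The 11 shortest members held 12.0% of the members' flower TPM and 11.3% of their leaf TPM, but 1.32% and 1.13% of their counts. The 7 longest held 5.02% and 6.75% of the TPM, but 26.3% and 33.7% of the counts, mostly through the transcript of 6369 bases. Among the 11 shortest, the transcript of 237 bases was far above the others, which lay between 208 and 786 TPM in flower and between 260 and 646 TPM in leaf. The 11 shortest held 212 or more counts each over both libraries, so none of these levels rested on a handful of reads.

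The members came from 105 loci, 101 components and 86 read clusters. A total of 81 members (69.8%) were the only transcript of their locus in the files, beside 70.8% of all detected transcripts and 51.5% of those with 100 or more counts. Some of the 81 carry an isoform number above 1, such as TR16962|c2_g1_i2|c0_g1_i1, which is alone in its read cluster in the files. Other isoforms of such loci may thus be missing from the files, and why is not stated. Counts and shares per locus, component or read cluster cover only the transcripts in the files. Of the loci, 8 held more than 1 member, and 19 members lay in these. At the level of the read cluster 16 held more than 1 member, with 46 members among them.

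Members of the same read cluster ranged from nearly equal ratios to opposite directions. In 6 of the 16 read clusters the members' differences lay within 0.1 of each other, and in 4 they were more than 1 apart. In 10 of the 16 all members were higher in the same tissue. The rule holds all members within the same limits, and no comparison with members of different clusters was made. The closest pair, of 936 and 1446 bases, had differences of -0.288 and -0.280, with levels between 571 and 583 TPM in flower and between 673 and 690 TPM in leaf. Fragments of a transcript assembled apart, and separate genes, cannot be told apart here without the sequences.

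The read cluster of the second 590-base transcript held 2 kinds of ratio. Its 3 members, of 590, 411 and 322 bases in 3 components, had differences between 0.399 and 0.414, although their flower levels ran from 776 to 3384 TPM. The other 2 transcripts of this cluster, both in another component, lay just outside the limit. The longer, of 893 bases, had 4710 counts in flower and 2035 in leaf and a difference of 1.08. The shorter, of 419 bases, had 585 and 253 counts and a difference of 1.10.

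The read cluster of transcript TR19057|c4_g1_i1|c0_g1_i1 was split by direction instead. While that transcript was higher in leaf by 0.53, the members of 510 and 382 bases were higher in flower by 0.55 each. They held 1650 and 947 counts in flower and 1042 and 600 in leaf. The fourth transcript of the cluster, of 457 bases, had 1603 counts in flower and 654 in leaf, a difference of 1.18, and was therefore no member.

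In 24 loci the member shared its locus with at least 1 other transcript, and 35 members lay in these loci. The member was the most abundant transcript of its locus in both tissues for 19 of the 35, in flower alone for 4, in leaf alone for 2 and in neither for 10. The median member took 51.2% of the locus TPM in flower and 46.7% in leaf. For 15 of the 35 this part differed between tissues by more than 10 percentage points, and the widest gap was 23.7. Summed over all transcripts of the locus, 23 of the 24 loci met the limit of 1, which the members, as part of each sum, largely fix.

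Even locus sums covered opposite members in some loci. In a locus of 2 transcripts, both members, the one of 1485 bases held 4106 counts in flower and 5573 in leaf and the one of 947 bases held 2123 and 1104. Their differences were -0.57 and 0.82, and that of the locus sum was -0.08. The longer took 53.4% of the locus TPM in flower and 75.0% in leaf. The widest split was in a locus of 5 transcripts, where the members of 569 and 902 bases had differences of 0.9997 and -0.64 and the locus sum 0.40.

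There were 35 partners in 22 loci (other transcripts of a member's locus that were no members). The rule shaped this set too, since a transcript of the locus that was in both lists and within the limit counted as a member. The partners' ratios are therefore a description, also beside the background. Of these, 24 (68.6%) lay between -1 and 1, beside 62.8% of all transcripts with 100 or more counts, which all 35 partners had. That is near the background. With TMM scaling 17 of the 35 lay within the limit, beside a background of 64.4%, so the partners stood slightly above the background in the first scaling and below it in the second. The other 11 partners were 5 higher in flower and 6 higher in leaf by more than 1.

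Partners were less abundant than the strongest member of their locus in 34 of 35 cases in flower and 32 of 35 in leaf, which the ranks asked of members nearly fix. The difference of a partner went the same way as the mean of its locus members in 27 of 35 cases. Across the 35 partners the Pearson r of the 2 differences was 0.63 and the Spearman rho 0.60. These points share libraries and, within a locus, members, and how reads that fit several isoforms were treated is not stated. The extreme partner was a transcript of 1120 bases with 3657 counts in flower and 217 in leaf, a difference of 3.92, in a locus of 6 whose 4 members lay between 0.23 and 0.74.

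Looser partners showed a mixed picture. Of 13 transcripts in another locus of a member's component, 6 lay between -1 and 1, and their differences ran from -5.12 to 2.44. The lowest was a transcript of 729 bases with 31 counts in flower and 1086 in leaf, in the component of a member of 799 bases with 1464 and 2343. Of 60 transcripts in another component of the same read cluster, 46 (76.7%) lay between -1 and 1, and 40 of the 50 that had 100 or more counts did, beside the background of 62.8%. The Pearson r with the members' mean difference was 0.31 for the 13 and 0.43 for the 60. These looser sets also leave out members, and whether the 60 exceed the background was not tested.

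**Figure D5:**
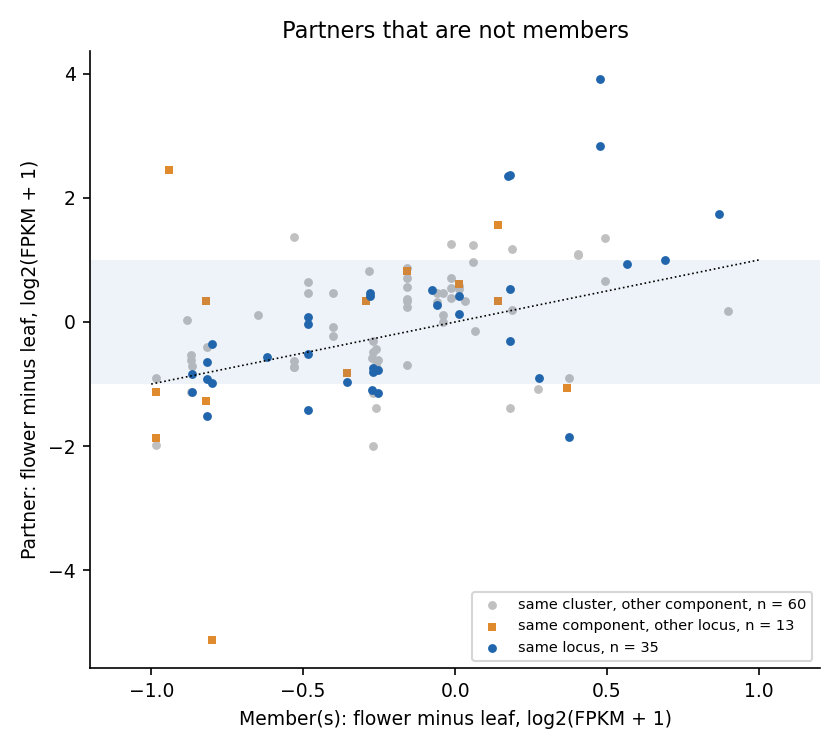
Flower minus leaf difference in log2(FPKM + 1) of each partner (y) against the mean difference of the members it is tied to (x), for partners in the same locus, in another locus of the component and in another component of the read cluster; the shaded band runs from -1 to 1 and the dotted line marks equality. Of the partners 24 of 35, 6 of 13 and 46 of 60 lie in the band.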

How the data were processed

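RNA of flower and of leaf was sequenced as 1 library per tissue. The submitters' processing notes list Trimmomatic and RSEM. Assembler, aligner and versions are not stated there. Per the file headers, the authors deposited expected counts (estimated fragments per transcript, not normalized), TPM and FPKM (both per effective length and library total) from RSEM. The deposited percent of each gene taken by a transcript was 0 or 100 in every row and was not used. The authors' joined table repeats the FPKM, with 0 values that differed. All expected counts were whole numbers (0 exceptions at a tolerance of 0). How reads that fit several transcripts were treated is not stated.

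The tissue tables were joined on the transcript identifier. Transcripts were ranked by TPM, and the log2 difference used FPKM with a pseudocount of 1, which understates the change of scarce transcripts. Count ratios were scaled by library totals (5466947 and 4982637), with exact 95% Clopper-Pearson intervals. Reads carry no molecular identifiers, so these may be too narrow. The selection and the intervals were run on simulated counts with counting error only. That is the error the intervals assume, so the run says nothing about variation between plants or about reads that fit several transcripts. The 4 transcripts named by identifier were the 2 with the highest mean log2 TPM on each side, and others named by length illustrate a result and were chosen after their values were seen. The members, lists and rules were chosen with earlier results of these data known. Alternatives were other list lengths, limits, units, pseudocounts and scalings. For TMM factors edgeR 4.0.16 (R 4.3.3) was used, and for all else Python 3.11.15 (scipy 1.17.1, pandas 2.3.3, numpy 2.4.6).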

Additional observations from a re-analysis of the deposited data

How the results depend on the processing

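No paired analysis was possible because there was a single library per tissue, so none could be left out either. A count was taken as moved past 1.5 times, and a share or median past its 95% interval. The interval of the median, -0.25 to 0.16, had the values of members as its ends, and members are no replicates. The intervals of the TPM shares were 6.61% to 6.65% in flower and 6.10% to 6.14% in leaf. These have the width of counting error, although TPM is not a count. By these limits 17 alternatives moved a value and 15 did not. Every alternative for the shares lay outside its interval, so this tally is a description only. The number of members was 46 with the top 250, 304 with the top 1000 and 66 at a limit of 0.5, and 115 to 149 in the other 9 settings, against 116. Ranking by expected counts gave 120, of which 58 were among the 116. With the top 250 and 1000 the members held 4.19% and 10.04% of flower TPM and 3.78% and 9.88% of leaf TPM. By counts they held 5.39% of flower and 5.84% of leaf. Without the 6369-base transcript, a setting added after seeing the data, these shares were 6.50% and 5.93% by TPM and 4.50% and 4.46% by counts. The median difference was -0.27 with TMM scaling and 0.03 from TPM, against -0.02. An interval wholly within 1.5-fold was met by 60 members, with no background computed. Even partners were 6 of 13 in other loci of the component, against 24 of 35 in the same locus. Added later, they were 46 of 60 in other components of the read cluster. As shares these were 46.2%, 68.6% and 76.7%. Longer lists and wider limits admit more transcripts by construction. Leaving out a member lowers a share by construction, and the partner counts come from sets of unlike size. The cause was not tested for the other moves.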
